A study of Mus musculus with 6 samples.

Results

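The response of wild-type mouse peritoneal exudate cells to lipopolysaccharide (LPS) with interferon-γ was measured by comparing 2 of the 6 Affymetrix arrays of the study. Peritoneal exudate cells are the cells washed from the abdominal cavity, and the labels also call them peritoneal macrophages. One array held RNA of untreated wild-type cells (WT) and the other RNA of WT cells given LPS and interferon-γ. The 4 other arrays held the same 2 states in cells without NF-IL6 (KO) and in cells of a knock-in line labelled KI(LAP) (KI). NF-IL6 is the transcription factor C/EBPβ, encoded by Cebpb, and LAP is a name of its activating form. All 6 samples carried the strain label C57BL/6. Stimulation lasted 12 h in KO and KI cells per the labels, which leave the time open for WT cells. They gave no dose, no age, and no statement of whether an array stood for 1 animal or a pool. All 12422 probe sets that are not array controls were considered. Signals are linear and in the arbitrary units of the array, and they rank samples for a gene, not genes against each other.

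There was 1 array on each side, so no difference below has a replicate check or a p-value. "Rose" and "fell" therefore mean a change of at least 2-fold between these 2 arrays. Signals under a floor of 98.0, the 40th percentile of all values, were set to the floor, and a fold against such a signal is a lower bound, written "at least". The KO and KI pairs are given beside the WT pair. They are other genotypes and not replicates, but they share no array with it. The number of arrays limits the precision of every value.

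LPS is a lipid of the outer membrane of Gram-negative bacteria. It is handed by CD14 to the receptor TLR4, whose adaptors lead to NF-κB and AP-1 on one branch, and to IRF3 and interferon-β on the other. Interferon-γ acts through its own receptor and the kinases JAK1 and JAK2, a path that leads to genes with a DNA element called GAS, Irf1 among them. Interferon response genes often carry a second element, ISRE, bound by IRF proteins and by the complex that type I interferon activates. Macrophages given both agents are known for making nitric oxide, inflammatory cytokines and interferon-inducible GTPases, and for presenting antigen.

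The promoters of several raised genes hold these elements, and the stretches below come from 8 raised genes chosen for their matches. Other strongly raised genes held none of the 3: no ISRE, NF-κB or GAS match was found for Cxcl9, Il1b or Tnf. Each was read from the RefSeq promoter table of build GRCm38.p6, which holds the 250 bases before and 50 bases after a gene's start, and is written 5′ to 3′ on the gene's strand. Capitals mark each match to a motif with 20 bases on either side. For Isg15 (chr4:156200855-156200916, minus strand), Ifit1 (chr19:34640765-34640833, plus strand), Gbp2b (chr3:142594690-142594739, plus strand) and Gbp2 (chr3:142620584-142620633, plus strand) the capitals are ISRE matches, searched as GAAA, any 2 bases and GAAA on either strand. For Cxcl10 (chr5:92348963-92349122, minus strand) the first block is an ISRE match and the other two are NF-κB matches, searched as GGGA, any 2 bases, T, any base and CC on either strand. For Il6 (chr5:30013050-30013099, plus strand) and Nfkb2 (chr19:46304678-46304727, plus strand) they are NF-κB matches, and for Irf1 (chr11:53769904-53769952, plus strand) a GAS match, spelled TTCNNNGAA.
Isg15: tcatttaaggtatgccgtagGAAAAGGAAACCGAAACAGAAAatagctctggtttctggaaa
Ifit1: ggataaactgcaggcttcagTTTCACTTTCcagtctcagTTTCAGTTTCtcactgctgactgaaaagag
Gbp2b: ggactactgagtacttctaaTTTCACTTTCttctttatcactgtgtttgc
Gbp2: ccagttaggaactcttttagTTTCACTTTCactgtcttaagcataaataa
Cxcl10: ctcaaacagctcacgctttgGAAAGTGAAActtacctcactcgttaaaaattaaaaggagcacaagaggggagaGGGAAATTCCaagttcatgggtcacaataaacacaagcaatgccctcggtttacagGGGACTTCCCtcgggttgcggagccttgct
Il6: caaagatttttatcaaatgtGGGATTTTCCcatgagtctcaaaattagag
Nfkb2: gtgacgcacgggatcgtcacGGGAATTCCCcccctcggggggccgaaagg
Irf1: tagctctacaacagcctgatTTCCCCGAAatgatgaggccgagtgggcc
The Isg15 stretch, which lies at positions -98 to -37 from the start, holds 3 overlapping ISRE matches. Ifit1, Gbp2b and Gbp2 share the 10 letters TTTCACTTTC. A match is a run of letters and not a measured binding site.

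Of the 12422 probe sets, 8825 were above the floor on at least 1 WT array and were compared. Both arrays were above the floor for 6944 of them, the stimulated array alone for 657 and the untreated array alone for 1224. After 1 probe set was kept for each gene symbol, 6457 named genes remained. Over probe sets, 798 rose (9.04%) and 942 fell (10.7%). Among the named genes, 597 rose (9.25%) and 717 fell (11.1%), while 5143 stayed within 2-fold. Larger rises outnumbered larger falls: 185 genes rose at least 4-fold (2.87%) against 71 that fell as much (1.1%), and 83 rose at least 8-fold (1.29%) against 18 (0.279%). The median gene moved by -0.17 on the log2 scale, with quartiles at -0.63 and 0.31.

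The deposited arrays shared a scale by their trimmed mean, but the untreated WT array had the higher signals in the lower range. Its median was 185 and its 10th percentile 28.7, against 164 and 17.8 on the stimulated WT array. On the other 4 arrays these ran from 131 to 172 and from 10.2 to 16.5. Above the floor lay 65.8% of probe sets on the untreated and 61.2% on the stimulated WT array. Centring each array on its median moved the median gene to -0.01, which is 0.16 higher, and turned the split of 597 rises and 717 falls into 719 and 483. Quantile normalization gave 679 and 625. The balance between rises and falls thus turned with the scaling, and small falls in particular are to be read against the median gene.

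**Figure D1:**
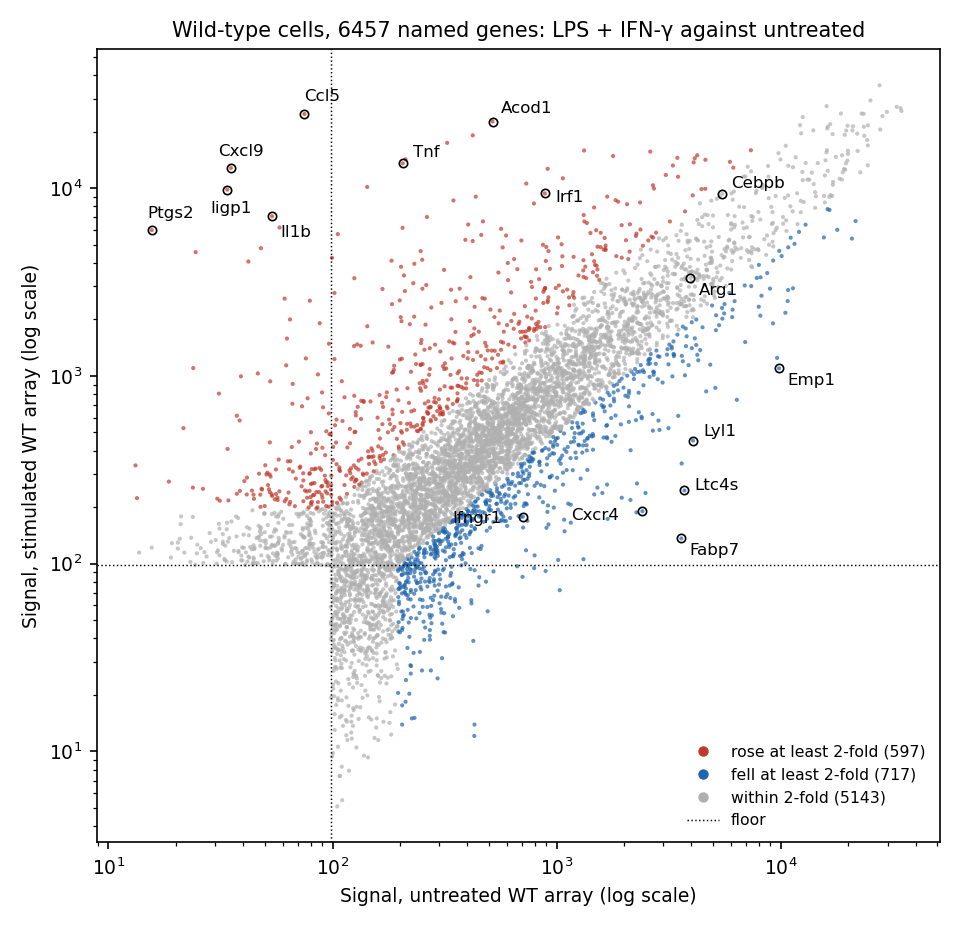
Each point is 1 of 6457 named genes, with its signal on the untreated WT array on the horizontal axis and on the stimulated WT array on the vertical axis, both on log scales, and dotted lines at the floor of 98.0. Red points rose at least 2-fold (597), blue points fell at least 2-fold (717), grey points stayed within 2-fold (5143), and labelled genes reach from Ccl5 at 24846 on the stimulated array to Fabp7 at 136.

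The labelled cell type was checked against marker genes. All 15 macrophage markers on the array were compared. Cd68, a lysosomal protein of macrophages, read 19427 to 12528, the lysozyme gene Lyz2 19989 to 15211, and the growth factor receptor Csf1r 6668 to 4787. The F4/80 gene Adgre1 rose (2259.8 to 5562), while C1qa and C1qc of the complement component C1q fell by 1.05 and 1.11 on the log2 scale. Mertk, a receptor for dying cells (269.9 to 1015), and Fcgr1 (1511 to 3863) rose as well, so that 3 of the 15 rose and 2 fell. Summed over the list, the signal was 130831 untreated and 92501 stimulated. This sum and those below weigh the brightest probe sets most, here Tyrobp (22686 to 12137) among others, and are no count of cells.

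Markers of other cells were read in the same way. B cell markers above the floor numbered 8 of 12 on the array, and their sum went from 7436 to 3911. Of these, 3 fell, Cd79b (1157 to 206), Ms4a1 (729.9 to 209) and Pax5 (246 to 64.5), none rose, and Ebf1, Vpreb3, Fcer2a and Cr2 stayed under the floor. T and NK cell markers were above it for 5 of 16, with Cd3e, Cd3d, Cd3g and Cd8a under it on both arrays and sums of 1057 and 673. Mast cell and eosinophil markers were above it for 6 of 15 (sums of 2688 and 1789), with Kit and Fcer1a under it. Cma1 (982 to 822) and Tpsb2 (902 to 717) stayed within 2-fold, and Cpa3 (288 to 113) and Ccr3 (206 to 55.7) fell. Neutrophil markers were above the floor for 11 of 14 (4009 and 3640.3), with S100a9 under it. Among them S100a8 (507 to 1073) and Mmp9 (95.3 to 259) rose and Mmp8 fell (493 to 55.8), an order that turned with the floor at the 20th percentile (2 rises and 5 falls). Dendritic cell markers went from a sum of 5175 to 10361, with rises in Ccl22 (262 to 3049), Ccr7 (85.2 to 436) and Cd83 (919 to 2621). Flt3 (746 to 414), Batf3 (498 to 352) and Fscn1 (1416 to 1318) read lower but within 2-fold. Itgax, Xcr1 and H2-DMb2 read higher within 2-fold, and Zbtb46 was under the floor. Mesothelial and fibroblast markers summed to 6130.1 and 6907, and 2 of 13 rose, Col5a2 (61.2 to 215) and Col1a1 (304 to 637). Dcn (1967 to 2880) and Col1a2 (1740 to 1481) were above the floor on both arrays and within 2-fold. Another probe set of Col1a1 and another of Col1a2 rose at least 8-fold (below). Erythroid and platelet markers were above the floor for 5 of 7 (2854 and 2241), with Alas2 under it. The haemoglobin genes Hba-a1 (1843 to 1207) and Hbb-b2 (613 to 587) stayed within 2-fold, and Klf1 rose (95.2 to 271). Fewer cells of a type and less RNA per cell cannot be told apart in these samples, and the part of other cells in the changes below was not tested.

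Ccl5, which attracts T cells and monocytes, went from 74.9 to 24846, at least 254-fold higher. Cxcl9, a chemokine induced by interferon-γ, went from 35.2 to 12797 (at least 131-fold). Iigp1, a GTPase directed at vacuoles that hold pathogens, went from 33.9 to 9818 (at least 100.2-fold). All 3 started under the floor and ended among the brighter signals of the stimulated array. The interleukin 1β gene Il1b (53.7 to 7088, at least 72.3-fold) and the cyclooxygenase gene Ptgs2 (15.6 to 5975, at least 61-fold) did the same. Tnf, the gene of tumour necrosis factor, was measured on both arrays and rose 65.9-fold, from 206 to 13549. Acod1, which encodes the enzyme that makes itaconate, rose 43.7-fold, from 518 to 22638.

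The other 9 of the 16 largest rises were Gbp2b, Isg15, Ifit2, Ifit1 and Gbp2, described with the interferon genes below, and Upp1, Gm9706, AW112010 and Cst7. Upp1, which splits uridine, went from 47.9 to 4788, and Cst7, a protease inhibitor, from 99.5 to 4256. AW112010 went from 423 to 19104. All 16 also rose in KO and in KI cells. The change of Tnf was 6.04 on the log2 scale in WT, 4.36 in KO and 5.15 in KI, and that of Acod1 was 5.45, 6.04 and 7.0. Il1b changed by at least 6.18 in WT and at least 4.61 in KI, both from under the floor, and by 5.0 in KO, so these are not compared. Tnf read 206, 467 and 402 in untreated WT, KO and KI cells and 13549, 9609.6 and 14223 after stimulation. Acod1 read 518, 309 and 177 before and 22638, 20283 and 22775 after it, so its genotypes differed more before than after.

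Fabp7, a fatty-acid-binding protein, fell 26.4-fold, from 3602 to 136, the largest fall among the genes ranked. Ltc4s, the leukotriene C4 synthase, fell 15.2-fold (3721 to 245), and Cxcr4, the receptor of the chemokine CXCL12, fell 12.7-fold (2415 to 190.3). Rgs2, an inhibitor of G-protein signalling, went from 1319 to 106, and the integrin subunit gene Itgb5 from 2494 to 238. Hal, a histidine-degrading enzyme, went from 3617 to 342, the transcription factor gene Lyl1 from 4063 to 453, and the membrane protein gene Emp1 from 9831 to 1097. Gdf3, a member of the TGF-β family, ended under the floor (1033 to 72.3, at least 10.5-fold lower).

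The remaining 7 of the 16 largest falls were Tmem37, St8sia4, Daglb, Sesn1, Rnase4, Adssl1 and Ypel3, at -3.10 to -3.60 on the log2 scale. In KO cells all 16 fell as well. In KI cells Ltc4s ended under the floor (183 to 94.5), so its fall of at least 1.87-fold is a lower bound, and its untreated signal compares with 3721 in WT and 4189 in KO. The KI change of Cxcr4 was -1.25 against -3.67 in WT, again from a lower start (937 against 2415). Further genes dropped under the floor from clear signals: Hebp1 (794 to 94.7), Pkib, an inhibitor of protein kinase A (705 to 85.1), Scx (668 to 96.9) and Aldh9a1 (523 to 91.0).

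**Figure D2:**
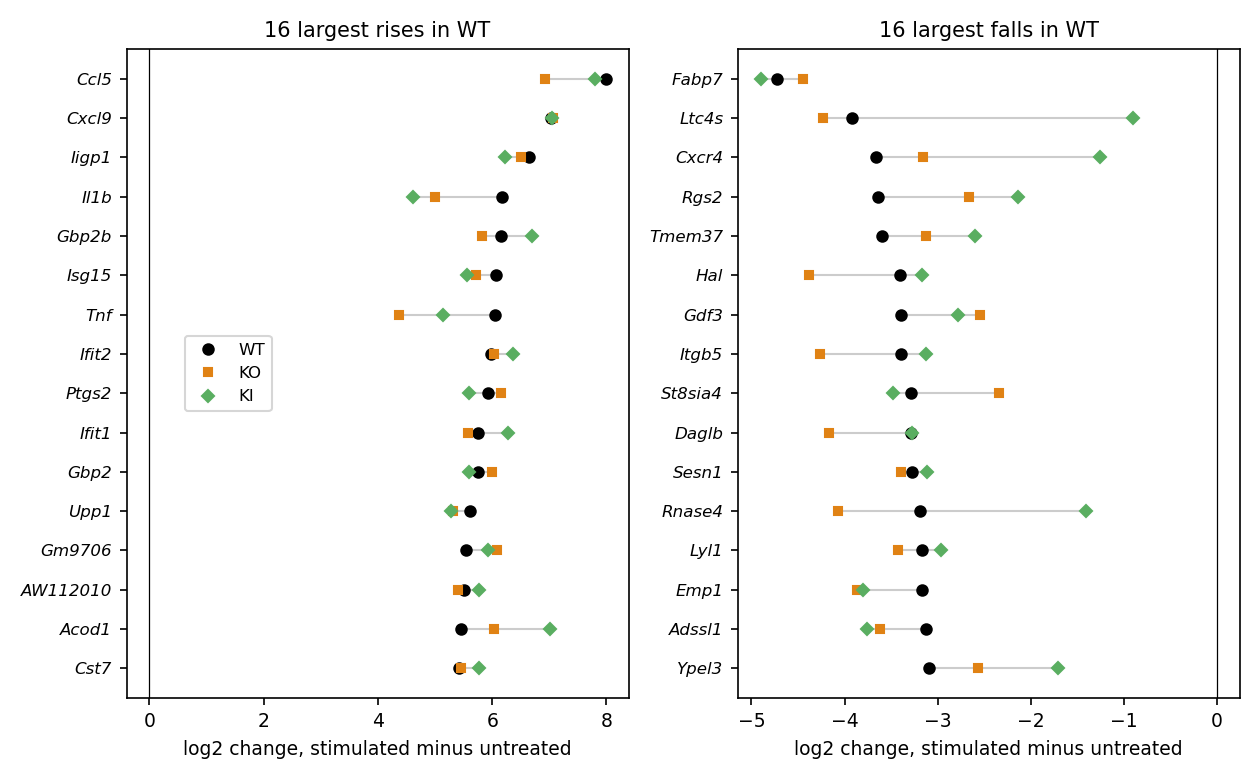
The log2 change (stimulated minus untreated) of the 16 genes with the largest rises and the 16 with the largest falls in WT cells, with a circle for WT, a square for KO and a diamond for KI, 1 pair of arrays each. All KO and KI changes have the sign of the WT change, and changes that start or end under the floor are lower bounds, such as the -0.90 of Ltc4s in KI.

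The 41 gene lists below were described by how many compared members rose or fell, against 9.25% and 11.1% of all named genes, and by their median, against -0.17. The lists were chosen with earlier results of these data known, so their counts are a description and no test against these shares.

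Receptors and first signalling steps went both ways: of 21 compared genes 5 rose and 4 fell (median 0.22). Ifngr1, the ligand-binding chain of the interferon-γ receptor, fell 3.97-fold, from 707 to 178, while Ifngr2, its partner, read 857 to 1128. Ifngr1 fell in KO (-1.65 on the log2 scale) and KI (-1.62) too. Both kinases of that receptor rose: Jak2 went from 247 to 1143 and Jak1 from 912 to 2470.1, the latter with changes of only 0.55 in KO and 0.21 in KI. The LPS co-receptor gene Cd14 read 6867 to 7915. Of the adaptor genes, Tirap fell (237 to 51.1) and Myd88 read 906 to 1399.9. Tlr4 has no probe set named here.

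The NF-κB system rose as a group, 12 of 20 genes with 1 fall (median 1.10). Inhibitors and feedback members were among the rises. Traf1 went from 96.4 to 1484, Nfkb2, the gene of the p100 precursor, from 276 to 2314, and Bcl3, a nuclear IκB protein, from 110.0 to 937. Nfkbia, the gene of IκBα, went from 1834 to 8632, and Tnfaip3, which encodes the inhibitory enzyme A20, from 31.1 to 805. The subunit gene Rela read 2811 to 4592, under 2-fold, Relb rose (481 to 1224) and Rel fell (205 to 17.6). The kinase gene Ikbkb read 457 to 281.

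Of 14 IRF and STAT genes 7 rose and 1 fell (median 0.92). Irf7, the factor that amplifies type I interferon, went from 469 to 6650.4, and Irf1 from 886 to 9372, 10.6-fold higher. Irf1 reached 8749 in KO and 8667 in KI cells, so that the 3 stimulated arrays lay close together. Irf8, a lineage factor of macrophages, rose from 1574 to 5784 and Stat3 from 1024 to 3032. Irf3, which acts directly below TLR4, fell from 508 to 237.

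Interferon response genes formed the most raised groups. All 8 interferon-inducible GTPases rose (median 4.50). Gbp2b, a guanylate-binding protein, went from 143 to 10147, Gbp2 from 325 to 17424, and Igtp, of the immunity-related GTPases, from 315 to 3669.6. The smallest rise, of Irgm2, was 2.44 on the log2 scale (431 to 2335). Of 24 type I interferon response genes 18 rose and 0 fell (median 2.68). Isg15, a ubiquitin-like modifier, rose 67.3-fold (212 to 14239.6), and Usp18, the protease that removes it, went from 202 to 3813. Ifit2 and Ifit1, which bind viral RNA, went from 58.0 to 6169.5 and from 106 to 5694, and Mx1, an antiviral GTPase, from 79.2 to 2515.

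Not every classical interferon gene moved. Eif2ak2, the kinase PKR, read 216 to 168, Oas1g 97.0 to 115, and Adar, an RNA-editing enzyme, 456 to 777. Ifnb1 itself, the interferon-β gene, read 243 to 123, a change of -0.98 on the log2 scale and just short of 2-fold.

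Of 28 cytokine genes 16 rose and 1 fell (median 1.24). Il12b, the p40 subunit of interleukin 12 and 23, went from 42.1 to 4066 and Il12a, the p35 subunit, from 41.5 to 287. Il6 went from 87.7 to 1908 (at least 19.5-fold), and it started under the floor in all 3 genotypes, so that its log2 changes of 4.28 in WT, 3.68 in KO and 2.75 in KI are lower bounds and give no order. Il1a went from 232 to 3956, and Il1rn, the antagonist of the same receptor, from 2619 to 15651. Csf1, the macrophage growth factor, rose in WT (111 to 575) by 2.38 against 1.05 in KO and 0.70 in KI. The anti-inflammatory cytokine gene Il10 was under the floor on both arrays, at 90.0 and 75.1. Tgfb1 read 1742 to 2285, and the only fall was that of Pdgfa (1861 to 902).

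Of 21 chemokine genes 10 rose and 2 fell (median 0.88). Cxcl10, induced by interferons, went from 61.1 to 2579, Ccl2, which draws monocytes, from 1327 to 15864, and Ccl22 from 262 to 3049. The neutrophil chemokine genes Cxcl1 (565 to 1520.4) and Cxcl2 (401 to 1493) rose less, by 1.43 and 1.90 on the log2 scale. Ccl3 and Ccl4 did not reach 2-fold, at 731 to 1206 and 277 to 499. Cxcl14 (452 to 84.7) and Ccl6 (2681 to 627) fell.

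Receptors of cytokines and chemokines went both ways: 9 of 28 rose and 5 fell (median 0.16). Ccr2, the receptor of CCL2, fell 8.54-fold in WT (2285 to 267) and changed by -2.71 on the log2 scale in KO, but read 649 and 665 in KI. Cx3cr1 fell (583 to 169), and Ccr7, the receptor that guides cells to lymph nodes, rose (85.2 to 436). Il10ra, of the interleukin 10 receptor, rose from 175 to 817, and the tumour necrosis factor receptor gene Tnfrsf1b from 3485 to 11501, with 0.81 in KO and 0.50 in KI against 1.72 in WT.

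Signalling feedback genes went both ways, 10 of 23 up and 3 down (median 0.31). Socs1 and Socs3, which damp JAK-STAT signalling, rose 15.9-fold (403 to 6402) and 13.6-fold (229 to 3117). Zfp36, which destabilises cytokine mRNA, rose from 1319 to 3368, and the phosphatase gene Dusp1 from 1189.8 to 2795. Gadd45a, a stress gene, fell from 798 to 111.

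Among 25 AP-1, ATF and C/EBP genes 6 rose and 3 fell (median 0.34). Cebpb itself, the gene altered in the other genotypes, read 5492 to 9329, which is 1.70-fold and under the threshold. Its KO signals were 12.7 and 59.0, both under the floor, and its KI signals 2284 and 5889.9. Cebpa, its relative in myeloid differentiation, fell 3.42-fold (7986 to 2336), and Cebpd read 992 to 782. Batf (73.1 to 689) and Junb (1522 to 3689) rose, while Jun (292 to 243), Fos (1059.9 to 1374) and Atf3 (14653 to 13591) did not pass 2-fold. Of 33 early growth and other induced factors 5 rose and 3 fell (median -0.06, of the other sign on median-centred arrays). Falls outnumbered rises with the floor at the 20th percentile (7 rises and 8 falls), with a pseudocount in place of the floor (5 and 8) and against the mean of the 3 untreated arrays (2 and 4). Hif1a, the oxygen-sensitive factor, rose 4.19-fold (3460.3 to 14499). Id3 fell (1157 to 165), and Egr1 (155 to 186) and Myc (153 to 109) stayed within 2-fold.

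**Figure D3:**
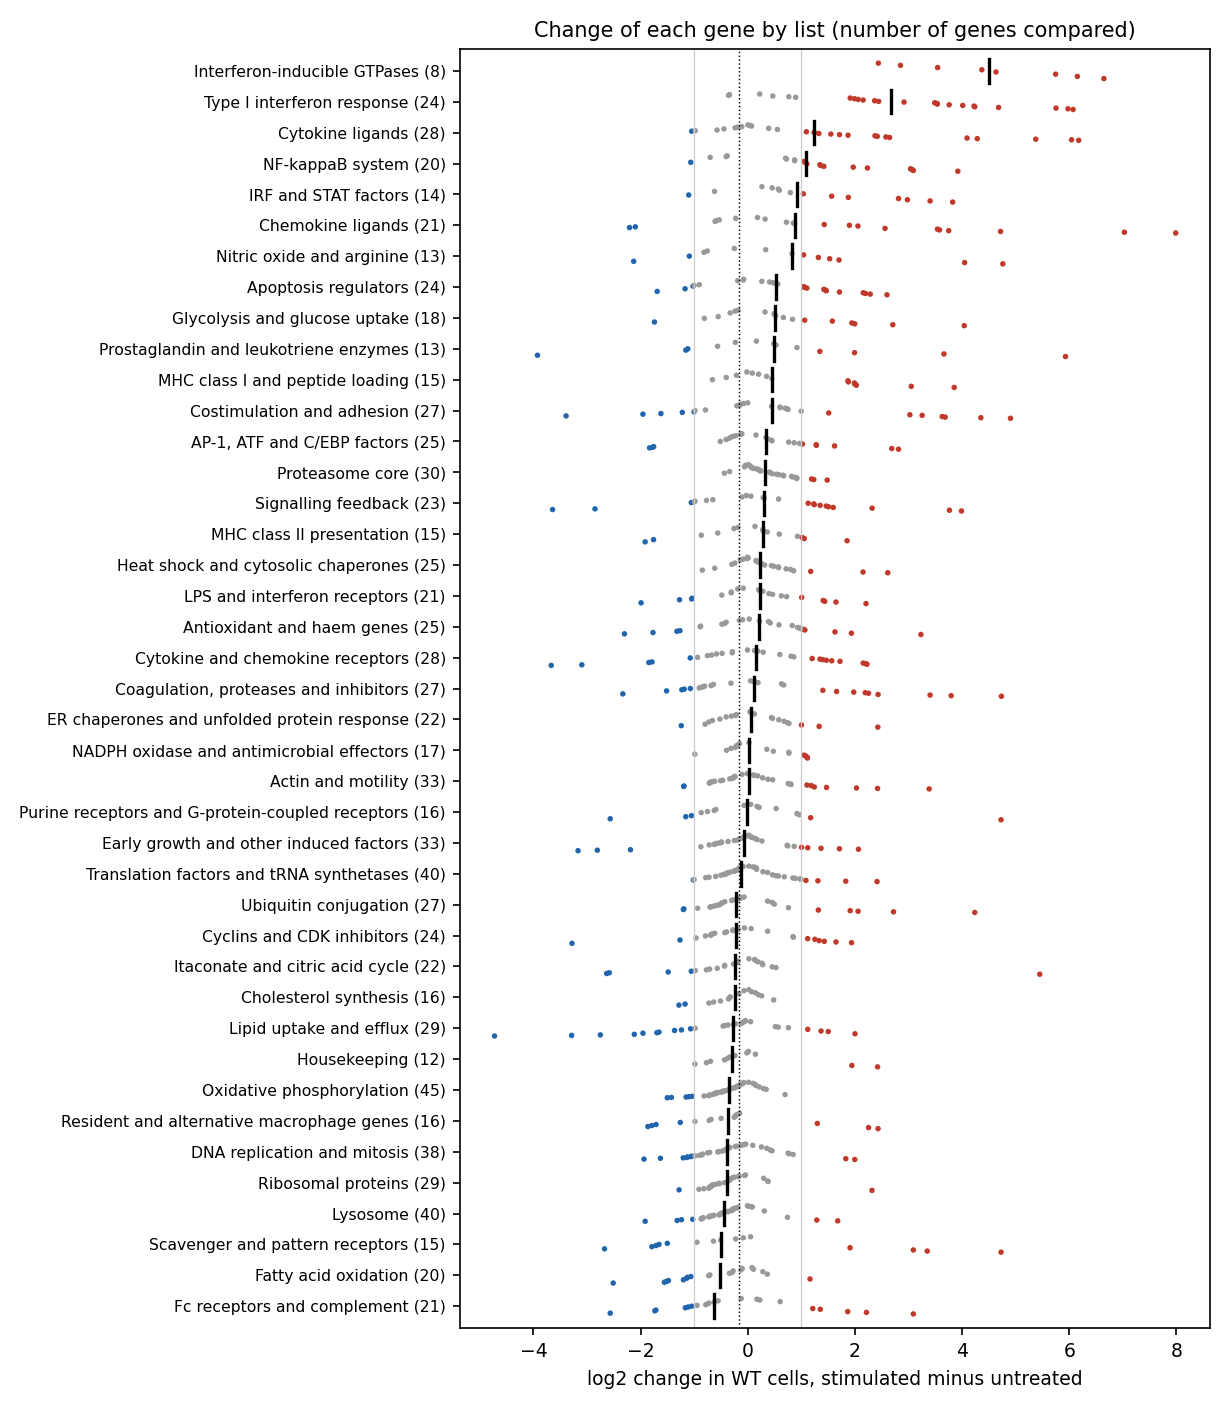
Each point is the log2 change of 1 compared gene in WT cells, stimulated minus untreated, by list, with red for rises and blue for falls of at least 2-fold and a black tick at the list's median. Vertical grey lines stand at 2-fold and the dotted line at the median of all named genes (-0.17). The medians run from 4.50 for the interferon-inducible GTPases to -0.63 for Fc receptors and complement.

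Of 15 genes of MHC class I and its peptide loading 7 rose and 0 fell (median 0.45), and all 7 serve peptide supply or loading. The peptide transporter gene Tap1 rose 14.5-fold (732 to 10582), and its partner Tap2 went from 317 to 1166. Tapbp, which holds the class I molecule to the transporter, went from 1788 to 14825; it rose by 3.05 on the log2 scale in WT against 1.85 in KO and 1.33 in KI, from untreated signals of 1788, 3994 and 6875. The immunoproteasome subunits Psmb8 (3305 to 13198), Psmb9 (1416 to 5770.1) and Psmb10 (2720.4 to 9954) rose, as they did in KO and KI cells. The class I molecules themselves did not pass 2-fold: H2-K1 read 23461 to 24883, H2-D1 27629.8 to 35291 and B2m 16097 to 15923.

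Of 15 MHC class II genes 3 rose and 2 fell (median 0.28). Ciita, the transactivator of the class II genes, rose from 187 to 378, and the peptide-exchange genes H2-DMa (2653 to 5515) and H2-DMb1 (1192 to 4307) rose with it. H2-Ab1 (4363 to 8304), H2-Aa (10820.4 to 13152) and the invariant chain gene Cd74 (16156 to 20817) did not reach 2-fold. Lgmn, a protease that processes antigen in lysosomes, fell from 10798 to 2867. H2-Ob, which B cells express, fell as well (410.3 to 121), beside the lower B cell marker sum given above, whose part in it was not tested.

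Costimulation and adhesion genes split, with 7 of 27 up and 5 down (median 0.45). Cd40 rose 29.9-fold (205 to 6147) and Cd86 8.14-fold (412 to 3358), while Cd80 read 163 to 148. The adhesion genes Icam1 (422 to 5226), Vcam1 (64.6 to 1999) and Itgal (143 to 1839) rose. Cd9, a tetraspanin, fell from 11351 to 2928, and Cd24a from 1666 to 542.

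Of 13 genes of nitric oxide and arginine 6 rose and 2 fell (median 0.83). Nos2, the inducible nitric oxide synthase, went from 102 to 2766 (27.1-fold), the arginine transporter gene Slc7a2 from 251 to 4156, Ass1, which regenerates arginine, from 367 to 1060.4, and Gch1, the first enzyme of cofactor synthesis, from 722 to 2352. The next enzyme of that cofactor, Pts, fell (740.3 to 169). The Slc7a2 rise was 4.05 on the log2 scale in WT, 1.66 in KO and 2.16 in KI. Arg1, the arginase of alternatively activated macrophages, hardly moved in WT (3949 to 3320.1), while KO signals were 3674 and 388 and KI signals 194 and 132.

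Of 17 NADPH oxidase and antimicrobial genes 4 rose and 0 fell (median 0.02). Slpi, a protease inhibitor, went from 2119 to 4592, and the metal transporter gene Slc11a1 from 3205 to 6647. The oxidase subunit genes Cybb (2299 to 3912), Ncf1 (1540.0 to 1973) and Cyba (21020.1 to 21386) stayed within 2-fold. Lyz2 read 19989 to 15211, and the acute-phase gene Saa3 16042 to 27344.

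Of 13 prostaglandin and leukotriene genes 4 rose and 3 fell (median 0.49). Ptgs2 and Ptges, the inducible steps to prostaglandin E2, rose at least 61-fold and 12.7-fold (199.5 to 2525). Pla2g4a, the phospholipase that releases arachidonic acid, went from 216 to 860.2. Ltc4s (3721 to 245) and Lta4h (3186 to 1469), of leukotriene synthesis, fell, as did the prostaglandin receptor gene Ptger2 (273 to 123). The Ptges rise was 3.66 on the log2 scale in WT, 1.30 in KO and 1.22 in KI, with stimulated signals of 2525, 242 and 289.7. The KO change started under the floor (60.6) and is a lower bound.

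Glucose metabolism rose in part, 6 of 18 genes with 1 fall (median 0.52). Hk2, a hexokinase, rose 16.5-fold (208 to 3429) and Slc2a1, the glucose transporter GLUT1, 6.53-fold (396 to 2588). Pgk1 (2693 to 10355), Pfkp (558 to 2228) and Pfkl (1655 to 4947) rose too. Hk2 and Slc2a1 ended at like signals in the 3 genotypes, at 3429, 2678 and 2902 and at 2588, 2579 and 2425, and it was the untreated WT signals that were low. Ldha, the lactate dehydrogenase, read 12350.4 to 19576.

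Citric acid cycle genes did not follow. Of 22 genes in the list of itaconate and citric acid cycle only Acod1 rose and 4 fell (median -0.23). Idh1 and Idh2, the NADP-dependent isocitrate dehydrogenases, fell 5.99-fold (3157 to 527) and 6.2-fold (731 to 118), while Idh3a, of the NAD-dependent enzyme, read 269 to 323. Suclg2 fell (599.8 to 215), and the succinate dehydrogenase genes Sdha (257 to 284) and Sdhb (4227 to 3518) stayed within 2-fold. Of 45 oxidative phosphorylation genes 0 rose and 5 fell (median -0.36), Atp5k, Ndufa6, Ndufb11, Cox5a and Ndufc1. That is 11.1%, the same share as of all named genes. On median-centred arrays 2 fell (median -0.18), and against the mean of the 3 untreated arrays 1 fell (median -0.12). In KO cells 0 genes of this list fell and 1 rose (median -0.10).

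Fat oxidation held 8 falls and 1 rise among 20 genes (median -0.52). Acaa2, the last thiolase step in mitochondria, fell 5.69-fold (3489 to 613), Acadm, which acts on medium chains, from 1752 to 597, and Ech1 from 2325 to 814. Cpt1a, which admits fatty acids into mitochondria, read 2466 to 2609. Of 29 genes of lipid uptake and efflux 4 rose and 10 fell (median -0.27). The fatty-acid-binding genes Fabp5 (8116 to 2095) and Fabp4 (754 to 293), the lipid droplet gene Plin2 (21606 to 6677), the receptor gene Cd36 (625 to 198) and their regulator Pparg (425 to 38.8) fell. Fabp3 rose (272 to 1089), as did Ch25h, which makes 25-hydroxycholesterol (189 to 535). Abca1, the cholesterol exporter, read 488 to 825. Of 16 cholesterol synthesis genes 0 rose and 2 fell (median -0.24), Sc5d and Msmo1.

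Among 25 antioxidant and haem genes 5 rose and 4 fell (median 0.22). Sod2, the mitochondrial superoxide dismutase, rose 9.4-fold (595 to 5593), by 3.23 on the log2 scale against 1.29 in KO and 2.75 in KI. The metallothionein gene Mt2 rose (3073 to 11750.2), and the glutathione enzymes Gsto1 (2849 to 578), Mgst1 (3883 to 1141) and Gpx4 (1739 to 696) fell. Hmox1, of haem breakdown, read 12555 to 23931.

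Of 40 lysosomal genes 2 rose and 4 fell, with a median of -0.44. Lipa, the acid lipase, fell from 7828 to 3324, and Hexa from 11086 to 5448. Ctsc, a protease that activates granule proteases, rose (1523 to 4879). Cathepsins D and B read 24337 to 18047 and 34301 to 26666. Most members thus lay below 0 but within 2-fold. The proteasome core had 3 rises and 0 falls among 30 genes (median 0.33), Psmd3, Psma5 and Psmd11.

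Ubiquitin genes held 5 rises and 2 falls among 27 (median -0.22). The rises included Usp18, Uba7 (429 to 1790.2) and Ube2l6 (197 to 741), the enzymes that attach or remove ISG15, and Rnf19b (606 to 3993). Ribosomal protein genes had 1 rise and 1 fall among 29 (median -0.39), Rps29 (98.1 to 489.7) and Rpl10a (8139.6 to 3352). Rps29 started just above the floor in WT, and read 279 to 342 in KO and 222 to 196 in KI. Of 40 translation genes 4 rose and 1 fell (median -0.12, of the other sign on median-centred arrays, with 2 rises and 3 falls against the mean of the 3 untreated arrays), led by Wars, the tryptophanyl-tRNA synthetase, which interferon-γ induces (608 to 3237).

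Of 22 endoplasmic reticulum chaperone genes 3 rose and 1 fell (median 0.07). Against the mean of the 3 untreated arrays 1 rose and 2 fell (median -0.05). Ero1a, an oxidase of protein folding, rose (1016 to 5465). Hspa5, the chaperone BiP, rose in WT (2273 to 5726) but moved by 0.93 in KO and -0.63 in KI. Its stimulated signals were alike in WT, KO and KI, at 5726, 6183 and 5965, and the untreated ones differed, at 2273, 3252 and 9221. Of 25 heat shock and cytosolic chaperone genes 3 rose and 0 fell (median 0.23), Hspa1a (199.9 to 1223), Hspa1b (174 to 772) and Hspa8 (4052 to 9152). Hspa1a and Hspa1b are near-identical copies, and their probe sets may share signal.

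Among 38 DNA replication and mitosis genes 2 rose and 7 fell (median -0.39), a balance that turned on median-centred arrays. The rises were those of Tk1 (125 to 501) and Pold1 (100.4 to 357). Plk1, a mitotic kinase, fell (458 to 119.9), and so did Stmn1 (568 to 184) and Ccna2 (355 to 170.3). Mki67 read 292 to 253 and Pcna 3582 to 3050.4. In KO cells 19 of the 38 fell and 0 rose (median -1.14). Of 24 cyclin and inhibitor genes 6 rose and 2 fell (median -0.23). Cdkn1a, the p21 inhibitor, rose (1318 to 4131), as did Mdm2 (777 to 2975), and Sesn1, a stress gene that p53 induces, fell 9.71-fold (1016 to 105). Of 24 apoptosis genes 11 rose and 3 fell (median 0.54). Bnip3 (204 to 1235), the caspase 8 inhibitor gene Cflar (162 to 791) and Casp4 (252 to 1157), which senses intracellular LPS, rose. Bad fell (933 to 289), and Bcl2l11 read 572 to 306.

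Of 21 Fc receptor and complement genes 5 rose and 6 fell (median -0.63), a balance that turned on median-centred arrays and against the mean of the 3 untreated arrays (5 rises and 2 falls). Clec4e (221 to 1886), Serping1 (248 to 1151) and C1ra (340 to 1240) were the largest rises. Fcgr1, the high-affinity receptor for IgG, rose (1511 to 3863), and the inhibitory Fcgr2b fell (2611 to 1166). C3ar1, a receptor for complement C3a, fell 5.92-fold (5111 to 864). Cfp, properdin, fell in WT (4247 to 1295) with 0.22 on the log2 scale in KI, from a lower start (1576 to 1830). Of 15 scavenger and pattern receptors 4 rose and 5 fell (median -0.50), but 4 and 3 with the floor at the 60th percentile. Fpr2, a formyl peptide receptor, rose 26.5-fold (125 to 3314), Marco, which binds bacteria, rose from 202 to 2055, and Mrc1, the mannose receptor, fell to under the floor (321 to 75.6). Cd93 fell 6.37-fold (1681 to 264).

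Of 27 genes of coagulation, proteases and inhibitors 9 rose and 5 fell (median 0.11). Serpinb9, an inhibitor of granzyme B, rose 26.6-fold (264 to 7020.4), Procr, the protein C receptor, 13.9-fold (912 to 12675), and Timp1, an inhibitor of matrix proteases, 10.6-fold (1067 to 11285). F10 rose (1365 to 6517) by 2.26 on the log2 scale against 0.70 in KO and 0.89 in KI. F3, tissue factor, rose from 80.0 to 386.

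Genes known from resident and alternatively activated macrophages held 3 rises and 4 falls among 16 (median -0.37), and 4 rises and 2 falls against the mean of the 3 untreated arrays. The rises were those of Serpinb2 (478 to 2579), F10 (1365 to 6517) and Adgre1 (2260 to 5562). Chil3 (2329 to 640.4), Cd5l (1622 to 469.7) and Folr2 (2772 to 1159.5) fell, though Chil3 came to 0.029 on the log2 scale against the mean of the 3 untreated arrays. The resident factor gene Gata6 read 161 to 45.1. Of 16 purine and other G-protein-coupled receptors 2 rose and 3 fell (median 0.00), and this order turned under 5 of the 8 other settings, either other scaling among them. Of 33 actin and motility genes 7 rose and 2 fell (median 0.02). Marcksl1 rose 10.5-fold (792 to 8282) and Actn1 from 1061 to 4334. Actn1 started higher in the other genotypes and read 2679 to 5895 in KO and 7094 to 7435 in KI. Of 12 housekeeping genes 2 rose, Pgk1 and Actb, whose probe sets disagreed (below), and 0 fell (median -0.29).

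Changes of WT cells were set beside the KO and KI pairs, which share no array with them. Of the 83 genes that rose at least 8-fold in WT, 80 (96.4%) rose in both KO and KI, 3 in only 1 of them and 0 in neither. Of the 102 that rose 4- to 8-fold, 57 (55.9%) rose in both and 16 (15.7%) in neither. Of the 412 that rose 2- to 4-fold, 100 (24.3%) rose in both and 241 (58.5%) in neither. Falls followed the same order: 16 of 18 (88.9%) at 8-fold or more, 38 of 53 (71.7%) at 4- to 8-fold and 141 of 646 (21.8%) at 2- to 4-fold fell in both. The background was a rise in 6.92% of named genes in KO and 6.13% in KI, and a fall in 10.6% and 8.81%. Of the 2- to 4-fold changes, 58.5% of the rises and 52.3% of the falls were thus met in neither other pair. Genotype, the floor and the spread of single arrays cannot be told apart in them. Genes were compared by their WT signals alone, and 1 under the floor on both KO or both KI arrays has a change of 0 there. Above the floor lay 57.4% and 55.7% of probe sets on the KI arrays, the lowest of the 3 genotypes. These shares, the background and the correlations below depend on that choice. Over the 6457 genes the changes correlated at r = 0.730 between WT and KO, 0.656 between WT and KI and 0.788 between KO and KI (Pearson, across genes, which are not independent and share scaling and probe sets).

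**Figure D4:**
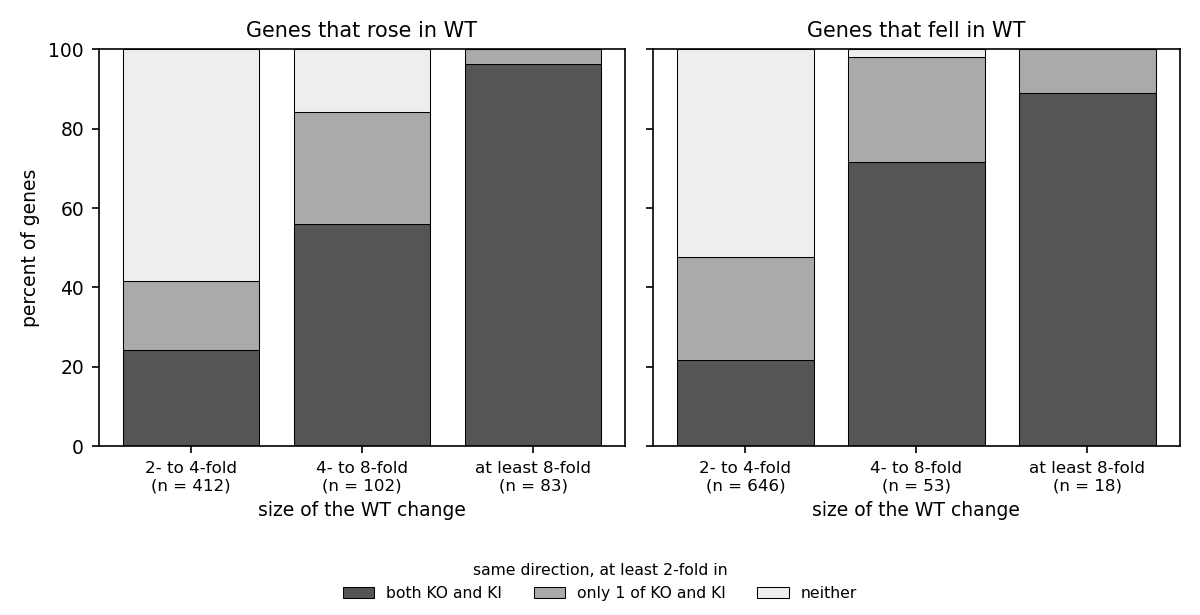
Percent of genes that rose (left) or fell (right) in WT cells, by the size of the WT change, whose KO and KI pairs also changed at least 2-fold in the same direction, in both, only 1 or neither. The share in both rises from 24.3% of 412 genes to 96.4% of 83 for rises, and from 21.8% of 646 genes to 88.9% of 18 for falls.

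In 290 of the 6457 genes the WT change lay at least 1 on the log2 scale above both others, and in 171 at least 1 below both. Signals were above the floor on all 6 arrays for 180 and 60 of these, and the other gaps rest on at least 1 signal set to the floor. Those furthest above both included Ptges and Hk2, given above, and Abcc1, an exporter that carries leukotriene C4 (2.77 in WT, 0.41 in KO, 0.49 in KI). Abca1 belonged there too, at 0.76, -1.39 and -1.70. Its untreated signals were 488, 1052 and 809 and its stimulated ones 825, 401 and 249, so WT was lowest before and highest after stimulation. Those furthest below both included the chemokine gene Ccl8 (0.88, 2.73 and 3.43), Ch25h (1.5, 3.20 and 3.45), Cd83 (1.51, 2.85 and 2.80) and the stress gene Gadd45b (-0.65, 0.80 and 2.21). Gadd45b read 3690.2 to 2350.4 in WT, against 1694 to 2942 in KO and 915 to 4241 in KI. The time of stimulation is labelled for KO and KI only, so time and genotype cannot be told apart in the stimulated signals. The untreated signals differed too, at 208, 766 and 1078 for Hk2 and 113, 344 and 388 for Abcc1 in WT, KO and KI.

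Some changed genes sat in runs on the chromosomes. Among 6449 genes placed in RefSeq order, 13 runs of 3 or more consecutive compared genes rose and 12 fell. They held 43 of the 597 genes that rose and 37 of the 717 that fell, so most changed genes were in no run. Up to 14 other coding genes lay between the members of a run, and no count by chance was made. The longest was on chromosome 17, where H2-DMb1, Psmb9, Tap1, Psmb8 and Tap2 of the MHC region rose (median 2.0). Gbp7, Gbp3, Gbp2b and Gbp2 on chromosome 3 had the second-highest median (5.19), after Ifit2, Ifit3 and Ifit1 on chromosome 19 (5.75). The chemokine genes Cxcl9 and Cxcl10 on chromosome 5 rose with Nup54 (median 4.72), and Ccl2, Ccl7 and Ccl12 on chromosome 11 rose together (median 3.58). On the same chromosome Slfn2 (4137 to 14428), Slfn1 (306 to 2449.7) and Slfn4 (203 to 1956) rose. Members of such families resemble each other in sequence, and signal shared between their probe sets was not tested.

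Among the runs that fell, Pkib, Fabp7 and Smpdl3a on chromosome 10 had a median of -2.85, and Apobec1, an RNA-editing enzyme, with Gdf3 and Dppa3 on chromosome 6 one of -2.95. Apobec1 went from 9643 to 1247. Fabp5 and Fabp4 fell beside Tpd52 and Pag1 on chromosome 3, and S100a4 (9247 to 1905), S100a5 and S100a6 (17898 to 5998) fell together on the same chromosome. Ifngr1 on chromosome 10 fell beside Pex7 (579 to 178) and Map3k5 (285 to 120.1).

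Several probe sets of the same gene gave a measure of the spread between probe sets on the same 2 arrays, which is not the spread between arrays. In 1181 genes with at least 2 compared probe sets (2566 in all) the pooled SD of the WT change within a gene was 0.64 on the log2 scale, and it was 0.59 in the 831 genes whose probe sets were above the floor on both arrays. In 185 genes at least 1 probe set rose and in 42 of them all did, and of 213 genes with a falling probe set all fell in 31. For 10 genes 1 probe set rose and another fell. Actb was one of them, at 2.42 for the probe set kept (1470.4 to 7887) and -2.71 for another (1224 to 187). Upp1 gave 5.61 and 0.57, Igf1 -0.11 and -2.73, and Col1a2 3.31 (59.6 to 974) and -0.23 (1740.0 to 1481). Agreement was not split by the size of the change. Col1a1 gave 1.07 for the probe set kept (304 to 637) and 3.39 for another (46.2 to 1030). In Upp1, Col1a2 and Col1a1 a change of more than 8-fold in 1 probe set was not met in the other.

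Motif matches were counted in the first listed RefSeq promoter of 5184 compared genes, and in 27025 promoters in all. Each motif was counted on its own, so letters may serve in matches to more than 1 motif. ISRE matches were found in 21.2% of the 66 promoters of genes that rose at least 8-fold, in 7.06% of 85 at 4- to 8-fold and in 2.62% of 344 at 2- to 4-fold. Genes that moved by under 2-fold (4117) had them in 3.01%, genes that fell at least 4-fold (60) in 1.67%, and all promoters in 3.49%. The stretches printed above for Isg15, Ifit1, Gbp2b, Gbp2 and Cxcl10 belong to the first group. Others there were Rsad2, Ifit3, Igtp, Gbp7, Gbp3, Ifih1, Socs1, Serpinb9 and Ppp1r15a.

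NF-κB matches were found in 16.7% of the promoters of genes that rose at least 8-fold, 8.24% at 4- to 8-fold, 5.81% at 2- to 4-fold, 4.52% of those that moved by under 2-fold and 3.92% of all promoters. Besides Il6, Nfkb2 and Cxcl10 these were Gbp2, Ifit2, AW112010, Procr, Tnfaip3, Bcl3, Lrrc8c and Larp1. Only Cxcl10 and Gbp2 of the 66 held both an ISRE and an NF-κB match. AP-1 matches, spelled TGANTCA, were found in 21.2% at 8-fold and more, in 5.81% of genes that moved by under 2-fold and in 7.93% of all promoters. The GAS motif, short and palindromic, was found in 15.2%, 6.66% and 8.47%, and a C/EBP motif spelled TTGCNNAA in 16.7%, 8.38% and 10.8%. All 5 motifs were most frequent in the promoters of the most raised genes, and AP-1, GAS and C/EBP matches also stood at 11.7% in genes that fell at least 4-fold. The 66 and 60 promoters are few, and neighbouring members of a family share promoter sequence, so these shares are a description without a test.

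**Figure D5:**
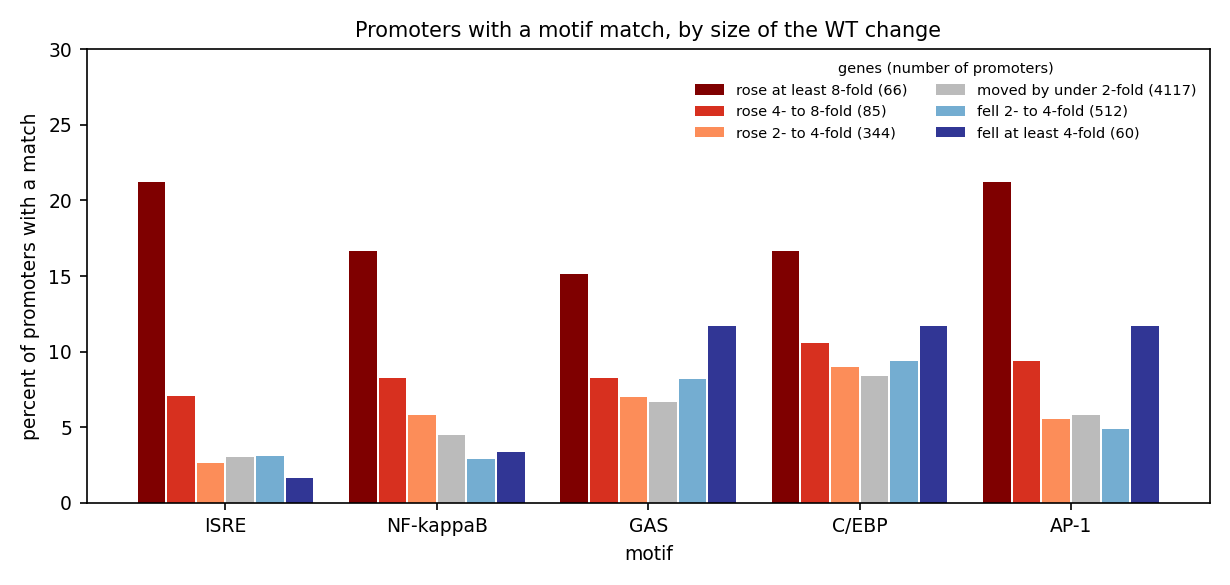
Percent of RefSeq promoters (250 bases before to 50 after the start) with at least 1 match on either strand, for 5 motifs, by the size of the WT change, with the number of promoters in brackets. ISRE falls from 21.2% of 66 promoters of genes that rose at least 8-fold to 3.01% of 4117 promoters of genes that moved by under 2-fold.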

How the data were processed

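The deposited series table holds a linear signal intensity for 12488 probe sets on 6 arrays, which the authors made with MAS5 according to the submitters' processing notes. No version or scaling target of it was given in the sources used here. Per the labels' protocols, 6 µg of Trizol-extracted RNA went into each biotinylated cRNA. Trimmed means (2% off each end) ran from 500.345 to 500.411, so the arrays were already on 1 scale, and a remaining factor was removed. After 66 controls were dropped, values under the 40th percentile (98.0) were set to it and converted to log2. Probe sets above this floor on a WT array were compared, in Python 3.11.15 with pandas 2.3.3 and numpy 2.4.6. Of 12422 probe sets 10833 have 1 gene symbol, 396 several and 1193 none in the platform annotation, and 10817 of those with 1 matched RefSeq by gene ID, with 0 symbols changed. Where a gene had several probe sets, the brightest over the 6 arrays by mean log2 intensity was kept.

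A change counts at 2-fold. Genes were named by rule: the 16 genes that rose most and the 16 that fell most, of those whose higher WT array reached the 75th percentile (532), the 12 and 8 largest from or to under the floor, up to 5 members of each of 49 lists, 8 genes each way that departed from both KO and KI, runs of neighbours, 5 genes whose probe sets disagreed, and a fixed set of receptors, factors and cytokines. Other genes named are list members, some within 2-fold and some past it, given by value, and were chosen after their values were seen. Not every one of a list's 5 largest changes is named. The members, lists and motifs were chosen with earlier results of these data known. Alternatives varied the floor, the scaling, the choice of probe sets and the untreated reference. The calculation was run on simulated data with changes placed in bright probe sets. That check covered changes of at least 4-fold, so it says nothing of calls near 2-fold or near the floor. Scanner files were not used here.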

Additional observations from a re-analysis of the deposited data

Results flagged for a closer look

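Of 974 genes checked, 7 moved at least 2-fold in opposite directions in WT cells and in KO or KI cells, in 8 pairs. None of these differences was tested, since each side is 1 pair of arrays. Il6ra, a chain of the interleukin 6 receptor, changed by 1.40 on the log2 scale in WT (160.0 to 421), by -1.0 in KO (538 to 269) and by -1.43 in KI (331 to 123). Csf2rb, the shared receptor chain for GM-CSF, changed by 1.20 in WT (1137 to 2618) and by -1.13 in KO (3699 to 1693). Tk1, thymidine kinase, changed by 2.0 in WT (125 to 501) and by -2.73 in KO, where it ended under the floor (652 to 93.0). For Mmp9, a gelatinase, the change was at least 1.40 in WT, from under the floor (95.3 to 259), and -1.92 in KI (1922 to 510). Nr4a1, an early-response nuclear receptor, changed by at least 1.0 in WT, from under the floor (84.7 to 197), and by -1.26 in KO (257 to 107). S100a8, a calcium-binding protein of myeloid cells, changed by 1.08 in WT (507 to 1073) and by -1.40 in KI (556 to 211). The change of Dnajc3, an endoplasmic reticulum co-chaperone, was 1.0 in WT (135 to 270) and -1.82 in KI (649 to 183). In all 8 pairs the untreated WT signal was below the untreated signal of the other genotype. The rule that picked the pairs favours this order, since the untreated signals enter both changes. Against the mean of the 3 untreated arrays the WT changes of Mmp9 and Dnajc3 turned to -0.19 each.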

How the results depend on the processing

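No paired analysis was possible because the WT comparison has 1 array on each side and the labels number no replicates; a comparison of stimulation across the 3 genotypes is a different one and was not run. Genes that fell at least 2-fold numbered 1262 with the floor at the 20th percentile and 362 with it at the 60th, against 717. Falls of at least 4-fold numbered 209 and 44 at these floors. Falls of at least 8-fold numbered 11 with the floor at the 60th percentile, 11 with median centring and 10 with the mean of the 3 untreated arrays as reference. Of probe sets, 1903 and 441 fell at least 2-fold at the 2 floors, 608 with median centring and 620 with the 3 untreated arrays, against 942. The counts of rises stayed within 1.5 times under every setting run. ISRE matches stood at 13.2% of promoters of genes that rose at least 4-fold, at 5.86% at 2-fold and at 21.2% at 8-fold, and AP-1 matches at 8.28% at 2-fold. Over 267 named genes and 8 settings, 1978 values kept their direction and side of 2-fold, 110 dropped below it, 20 passed it, 5 reversed, 2 went from under 2-fold to past it with the other sign, and 21 had no value. With the 3 untreated arrays as reference, Ubtf came to -0.17, Dnajc3 to -0.19, Chil3 to 0.029, Mmp9 to -0.19, Arg1 to 1.23 and Hbb-b2 to 1.22, and Actb came to -0.14 over the mean of its probe sets; the cause was not tested. That reference also took 41 of the 110 values below 2-fold. In 10 of 49 lists the order of rises and falls turned under at least 1 setting, in 3 of them with a change of scaling. Low signals limit what can be seen, and 3597 probe sets under the floor on both WT arrays were not compared.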
